A study of Mus musculus with 6 samples.

Results

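The genes described here are 10 mouse genes of the cyclin E and Rb switch that commits a cell to DNA synthesis. They were taken by name, with earlier results of these data known. They are the cyclin E genes Ccne1 and Ccne2, their kinase gene Cdk2, the transcription factor genes E2f1, E2f2, E2f3 and E2f4, and the pocket protein genes Rb1, Rbl1 and Rbl2. All Bcl6 binding sites (peaks) that the authors listed for them were followed, among 3878 peaks over the genome and 21900 protein-coding genes. The data come from chromatin immunoprecipitation with sequencing (ChIP-seq) in cortical progenitors made from 1 mouse embryonic stem cell line, A2 lox.Cre Bcl6, whose Bcl6 transgene is switched on by doxycycline. There were 2 groups, Bcl6 ChIP (3 libraries, antibody to Bcl6) and input DNA (3 libraries, no antibody), and both came from cells at day 12 of differentiation, kept earlier in cyclopamine at 400 ng/ml, with Bcl6 induced by doxycycline at 1 µg/ml for 24 h. Uninduced cells were not analysed here, and the peaks hold induced and endogenous Bcl6 together. No RNA was measured here, so the labelled cell type could not be checked against marker genes.

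Bcl6 is a zinc finger repressor. Cyclin E binds and activates Cdk2, and this kinase, after that of the D cyclins, phosphorylates the pocket proteins. Unphosphorylated pocket proteins hold E2F factors and repress their targets, and their phosphorylation frees E2F1, E2F2 and E2F3 to activate genes of DNA replication, cyclin E among them. E2F4 acts mainly as a repressor together with the pocket proteins of Rbl1 and Rbl2. In cortical progenitors this switch bears on whether a cell divides again or leaves the cycle to become a neuron.

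The libraries of each group were pooled before peak calling, so there is 1 set of values, no replicate error and no test. The pooled Bcl6 ChIP kept 11718276 tags after duplicates were removed, and the pooled input kept 5048582. Each peak has a fold enrichment over the local input background, a score (10 times the −log10 of p), a false discovery rate (FDR) and a count of ChIP tags, all of them the authors' own values. Exact 95% Poisson intervals are given on the tags and cover counting error only.

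A peak was listed for 6 of the 10 genes: Ccne1, E2f1, E2f2, E2f3, Rb1 and Rbl1. Over all protein-coding genes, 20.1% had a listed peak. Ccne1 had 2 peaks and the others 1 each, which makes 7 peaks. In 4 of the 10 genes (E2f1, E2f3, Rb1 and Rbl1) a peak was centred within 1 kb of the listed transcription start site (TSS), against 10.8% of all protein-coding genes. Because the genes were chosen with earlier results of these data known, these shares are descriptions only. The list held no peak for Ccne2, Cdk2, E2f4 and Rbl2.

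Promoter sequence was at hand for 7 of the 10 genes (RefSeq, GRCm38.p6, the build of mm10). It came as 9 windows from 250 bases before to 50 after a start site. The E2f1 window belongs to a start 466 bp inside the gene, so the DNA before the listed TSS of E2f1 was not at hand. A peak covered at least part of 5 of the 9 windows, in E2f1, E2f2, E2f3 and Rbl1, against 8.84% of all 32851 windows. The 250 bases before the start are printed for these 5, since they show the DNA under the Bcl6 peaks. They run 5′ to 3′ on the strand of the gene, and capitals mark matches to the motifs that are described below.
E2f1, chr2:154569427-154569676, minus strand: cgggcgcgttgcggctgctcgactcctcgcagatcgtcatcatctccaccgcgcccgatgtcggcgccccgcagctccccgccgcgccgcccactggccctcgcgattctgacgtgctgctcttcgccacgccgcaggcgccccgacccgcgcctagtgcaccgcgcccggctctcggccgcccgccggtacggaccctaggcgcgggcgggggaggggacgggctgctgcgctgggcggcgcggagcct
E2f2, inner start, chr4:136180532-136180781, plus strand: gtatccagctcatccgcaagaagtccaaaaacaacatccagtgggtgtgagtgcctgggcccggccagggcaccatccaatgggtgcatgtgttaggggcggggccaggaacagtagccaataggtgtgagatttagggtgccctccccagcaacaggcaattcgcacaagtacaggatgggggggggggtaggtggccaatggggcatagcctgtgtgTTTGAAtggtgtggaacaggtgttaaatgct
E2f3, outer start, chr13:29986064-29986313, minus strand: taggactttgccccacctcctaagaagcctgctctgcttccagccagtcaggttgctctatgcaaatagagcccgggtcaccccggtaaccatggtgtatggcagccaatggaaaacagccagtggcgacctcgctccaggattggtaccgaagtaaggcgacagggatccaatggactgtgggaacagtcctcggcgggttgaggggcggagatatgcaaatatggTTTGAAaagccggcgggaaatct
E2f3, inner start, chr13:29984392-29984641, minus strand: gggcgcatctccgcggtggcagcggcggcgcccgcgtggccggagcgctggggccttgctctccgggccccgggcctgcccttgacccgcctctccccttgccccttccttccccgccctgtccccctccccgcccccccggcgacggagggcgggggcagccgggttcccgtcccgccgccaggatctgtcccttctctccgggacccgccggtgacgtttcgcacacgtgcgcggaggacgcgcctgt
Rbl1, chr2:157204535-157204784, minus strand: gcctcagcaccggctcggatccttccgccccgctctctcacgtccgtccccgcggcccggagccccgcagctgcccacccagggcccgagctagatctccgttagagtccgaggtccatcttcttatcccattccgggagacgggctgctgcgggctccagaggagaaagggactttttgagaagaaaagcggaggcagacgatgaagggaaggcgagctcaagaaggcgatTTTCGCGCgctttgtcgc

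Both strands of all windows were searched for exact matches to 5 short motifs. The Bcl6 motif TTCCTAGAA, and its looser form TTCCNNGAA, were in 0 of the 9 windows of these genes. They were in 0.31% and 4.78% of the 2905 windows under a peak, and in 0.411% and 4.81% of all windows. The result says only that these letters are not in these windows, and much of each peak lies outside them. The points of highest signal of these peaks also lie outside the windows, for example 262 bases before the E2f1 start and 287 after the Rbl1 start. The E2F motif TTTCGCGC, found in 0.323% of all windows, was in the Rbl1 promoter, with its first base 18 bases before the start and under the Bcl6 peak. The other E2F form, TTTGGCGC (0.514% of all windows), was in the outer promoter of E2f2, 39 bases after that start, where no peak was found. The cell cycle homology motif TTTGAA, which the MuvB complex is known to bind, is short. It was in 17.9% of all windows and in 9.4% of those under a peak. It was in 3 windows here, 31 bases before the inner start of E2f2, 23 bases before the outer start of E2f3 and 201 bases before the start of Rbl2. The TTTGAA of Rbl2 lies on the other strand and under no peak.

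The 5 windows under peaks differed in base composition. GC content was 77.3% at E2f1 and 78.7% at the inner start of E2f3, at the 97.8th and 98.5th percentiles of all windows. It was 64.0% at Rbl1, 56.7% at the inner start of E2f2 and 55.3% at the outer start of E2f3. CpG dinucleotides numbered 48 at E2f1, 37 and 16 at the inner and outer starts of E2f3, 29 at Rbl1 and 7 at the inner start of E2f2. The median window held 26 CpG under a peak and 7 over all windows, so the E2f2 window was the one of these 5 with no more CpG than a typical promoter. A GC-rich promoter did not always carry a peak: that of Ccne1 had 76.0% GC and 41 CpG, and its peaks lay elsewhere.

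**Figure D1:**
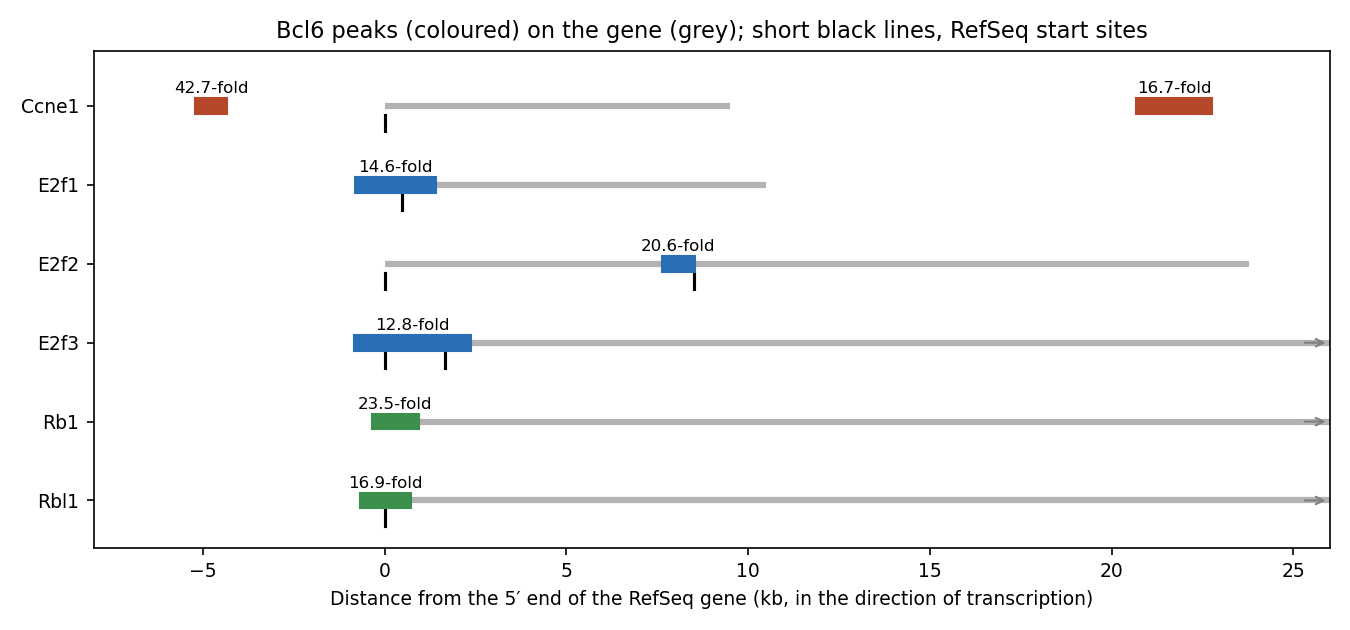
Position of the 7 listed Bcl6 peaks (coloured boxes, to scale, with fold enrichment) along the 6 genes that have one. The horizontal axis is the distance from the 5′ end of the RefSeq gene in kb, grey bars are genes (an arrow marks a gene that runs on), and short black lines are RefSeq start sites, not at hand for Rb1; peaks lie over the 5′ end of E2f1, E2f3, Rb1 and Rbl1, inside E2f2, and on both sides of Ccne1.

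Ccne1 encodes cyclin E1, which drives Cdk2 at the entry to S phase. Its stronger peak was on chromosome 7 from 38111837 to 38112697 (861 bp), centred 4733 bp upstream of the listed TSS. It held 39 tags (95% interval 27.7 to 53.3), with 42.7-fold enrichment, a score of 76.7 and an FDR of 0.6%. By fold it ranked 200 of 3878 peaks. By score it stood near the middle, at the 56.9th percentile, and by tag count it stood at the 20.8th. The peak is narrow, and its 45.3 tags per kb (interval 32.2 to 61.9) overlap with the intervals of all the other peaks described here.

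The second Ccne1 peak lay beyond the other end of the gene, from 38084732 to 38086820 (2089 bp), centred 21.8 kb downstream of the TSS. It held 82 tags (65.2 to 102), 16.7-fold, with a score of 57.7 and an FDR of 1.53%. The same peak was listed for Uri1, a prefoldin-like chaperone gene, 66.2 kb from its TSS, so its link to Ccne1 rests on distance alone. The Ccne1 gene spans 38097984 to 38107490, and neither peak overlaps it.

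E2f1 encodes the best known activator of the family. Its peak, on chromosome 2 from 154568492 to 154570698 (2207 bp), was centred 297 bp downstream of the listed TSS, and its summit (the point of highest signal) lay 204 bp downstream of the 5′ end of the RefSeq gene. It held 112 tags (92.2 to 135), the most of the 7 peaks, with a score of 91.7 and an FDR of 0.61%. Its fold was 14.6, at the 13.5th percentile of all peaks, while its tag count was at the 85.6th. The window printed for E2f1 belongs to a start site 466 bp inside the gene, and the peak covers it whole.

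E2f2 encodes another activator. Its peak, on chromosome 4 from 136179912 to 136180801 (890 bp), lay wholly inside the gene, centred 7962 bp downstream of the listed TSS. RefSeq has a second E2f2 start 8508 bp inside the gene. The summit was 466 bp before that inner start, and the peak covered 270 of the 300 bases of its window. With 30 tags (20.2 to 42.8), a score of 51.7 and an FDR of 2.68%, it had the lowest score of the 7 and stood at the 5.75th percentile of all peaks. Its fold of 20.6 was close to the median of all peaks, 21.3. It was listed for Asap3 as well, a GTPase-activating protein gene whose TSS lies 26009 bp away.

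E2f3 is known to be read from an outer and an inner promoter, which give the E2F3a and E2F3b proteins. Its peak, on chromosome 13 from 29983692 to 29986907 (3216 bp), was the widest of the 7 and covered both promoter windows, whose start sites are 1672 bp apart. The summit fell between them, 520 bp after the outer and 1152 bp before the inner start. The peak held 106 tags (86.8 to 128), with a score of 63.4 and an FDR of 0.81%. Its fold of 12.8 was the lowest of the 7, at the 5.96th percentile, and its 33.0 tags per kb (27.0 to 39.9) were the lowest density.

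E2f4 had no listed peak, yet a peak touched the gene. On chromosome 8, a peak from 105304645 to 105306242 shared 726 bp, 45.4% of its width, with one end of E2f4 (105297663 to 105305370). The authors' list gave this peak to Elmo3 alone, an engulfment gene, 158 bp upstream of its TSS, and the summit lay 411 bp outside E2f4. It held 78 tags (61.7 to 97.3) at 35.4-fold, with a score of 145, which is higher than the score of any of the 7 listed peaks. It is reported as a position only and is not counted among the peaks of E2f4.

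Rb1 encodes the retinoblastoma protein. Its peak, on chromosome 14 from 73325014 to 73326301 (1288 bp), was centred 165 bp downstream of the listed TSS. It held 48 tags (35.4 to 63.6) at 23.5-fold, with a score of 80.5 and an FDR of 0.59%, the lowest FDR of the 7. It was the only peak besides the upstream one of Ccne1 with a fold above the median of all peaks, at the 62.4th percentile.

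Rbl1 encodes the pocket protein that shares most with that of Rbl2. Its peak, on chromosome 2 from 157203819 to 157205205 (1387 bp), was centred on the listed TSS at a distance of 0 bp. It held 70 tags (54.6 to 88.4), with a fold of 16.9 and an FDR of 0.73%. Its score of 106.5 was the highest of the 7, at the 78.9th percentile. The E2F motif printed in capitals above lies under this peak, with its first base 18 bases before the RefSeq start. The summit lay away from the motif, 287 bp after that start.

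The other genes without a listed peak were farther from any. For Cdk2 the nearest peak was 22.8 kb from the gene, 11.8-fold, and it was listed for Suox, a sulfite oxidase gene, 246 bp from its TSS. For Ccne2 the nearest was 117 kb away, 23.4-fold, at the start of Dpy19l4. For Rbl2 it was 161 kb away, 25.3-fold, and was listed for Gm6658. The table holds only peaks past the p-value cutoff, so weaker binding at these genes would not be seen.

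Set side by side, the 7 peaks kept no common order across measures. Their folds ran from 12.8 to 42.7 with a median of 16.9, against 21.3 over all peaks, and 5 of the 7 were below that median. Ranked by score or by tag count, 4 of the 7 were above the median of all peaks, which was 71.7 for the score and 58 for the tags. The 4 peaks within 1 kb of a TSS had a median of 15.7-fold, against 20.3-fold for all 2171 such peaks. In tags per kb the 7 peaks ran from 33.0 at E2f3 to 50.7 at E2f1. Those 2 intervals (27.0 to 39.9 and 41.8 to 61.1) did not overlap. They cover counting error only and belong to the lowest and highest of the 7, and the difference was not tested. The folds of the same 2 peaks, 12.8 and 14.6, were the lowest of the set.

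**Figure D2:**
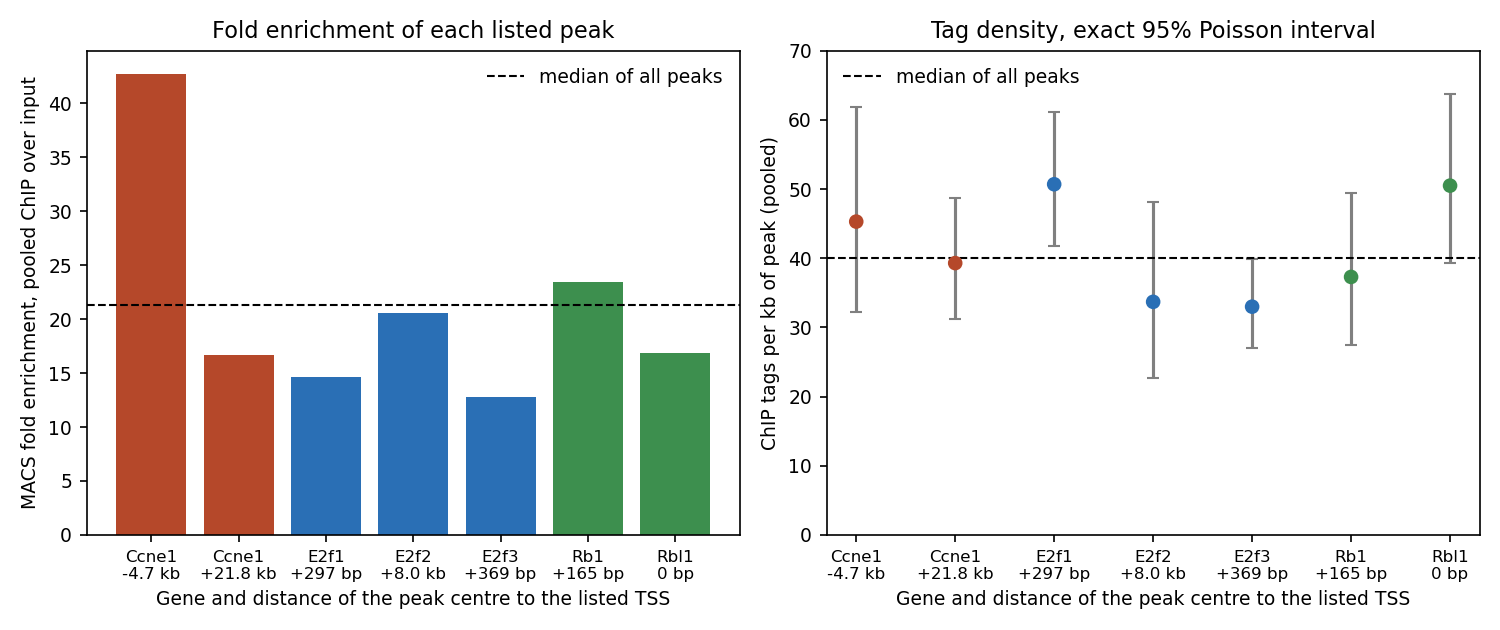
The 7 listed peaks by gene, with the distance of the peak centre to the listed TSS. Left, bars give the authors' fold enrichment of the pooled Bcl6 ChIP over input; right, points give ChIP tags per kb of peak with exact 95% Poisson intervals (counting error only). Dashed lines are medians of all 3878 peaks; the upstream Ccne1 peak stands out by fold, at 42.7, and not by tag density, at 45.3 tags per kb.

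The 7 peaks also differed in width. The E2f3, E2f1 and downstream Ccne1 peaks, 3 of the 7, were over 2 kb wide, against 22.8% of all peaks, and these 3 had the lowest folds. The peaks of E2f2 (890 bp) and upstream Ccne1 (861 bp) were below the 10th percentile of width. Over the genome, tags were kept at 6.27 per kb, and the 7 peaks held 5.26 to 8.1 times that density.

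**Figure D3:**
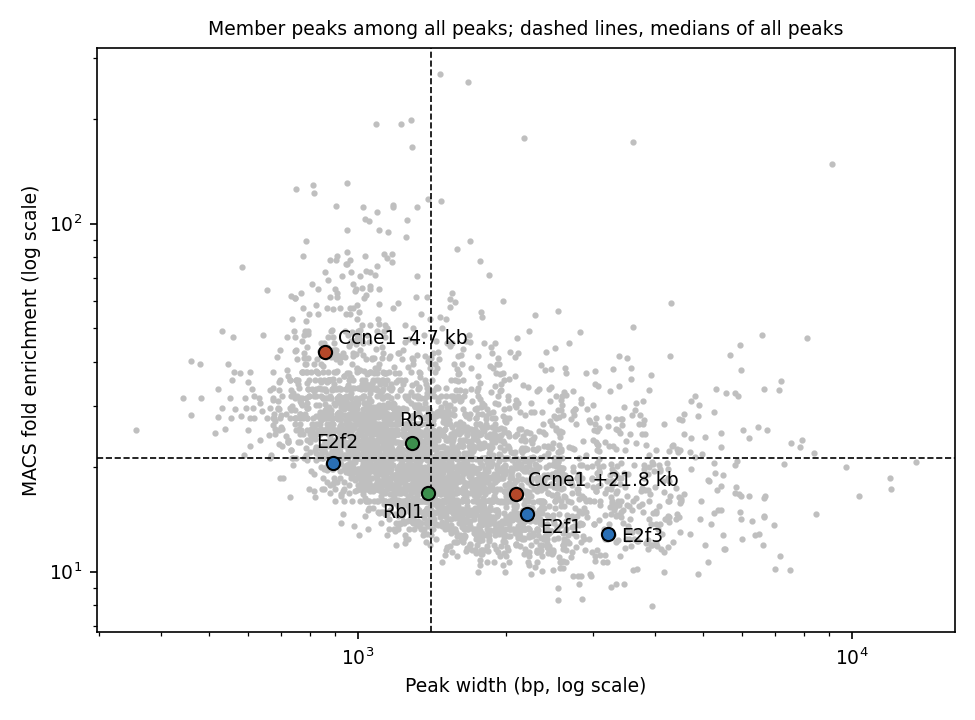
Fold enrichment against peak width (both on log scales) for all 3878 peaks (grey) and the 7 listed peaks (coloured by gene). Dashed lines are the medians of all peaks, 21.3-fold and 1405 bp; the 3 peaks over 2 kb wide sit at 12.8- to 16.7-fold, and the upstream peak of Ccne1 at 42.7-fold is narrow.

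Genes that work around this switch were counted in the same way. The D cyclins Ccnd1, Ccnd2 and Ccnd3 and their kinases Cdk4 and Cdk6 act just before cyclin E. They had a peak in 5 of 5 cases, beside 20.1% of all protein-coding genes, with 8 peaks of 19.7- to 55.2-fold. In 2 of the 5, Ccnd2 and Cdk4, a peak lay within 1 kb of the TSS, beside 10.8% of all protein-coding genes. For the genes described here it was 4 of 10, the same share as 2 of 5. Of those 8 peaks, 6 were above the median fold of all peaks, against 2 of 7 for the genes described here. The strongest were 55.2-fold at Cdk6 (1093 bp from the TSS), 45.4-fold at Ccnd2 (554 bp), 35.5-fold at Ccnd1 (94.7 kb, a peak shared with Tpcn2) and 26.6-fold at Cdk4 (5451 bp, shared with Tspan31). The peak of Ccnd3 lay 96.4 kb away and was shared with Bysl. By score and by tag count, the peaks of Ccnd2, Cdk4 and Cdk6 were above the medians of all peaks, and those of Ccnd1 and Ccnd3 below. On both measures 4 of the 7 peaks of the genes described here were above, so the contrast given above is one of fold. The difference between the gene groups was not tested.

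Regulators of cyclin E and Cdk2 had a peak in 6 of 16 cases (37.5%, beside 20.1% of all protein-coding genes). In 4 of the 16 a peak lay within 1 kb of the TSS, beside 10.8% of all protein-coding genes. Skp1a and Cul1 encode the core of the SCF ubiquitin ligase, and Fbxw7 the subunit that marks cyclin E for destruction. Their peaks had 31.1-fold at Skp1a (33 bp from the TSS), 20.4-fold at Fbxw7 (354 bp) and 14.6-fold at Cul1 (3 bp). The peak of Cdkn1b, a Cdk inhibitor gene, had 21.5-fold and lay 246 bp from the TSS. Cdkn1a, an inhibitor gene induced by p53, had 5 peaks of 14.2- to 25.1-fold. Of these, 4 were shared with the splicing factor gene Srsf3, 12.4 to 58.9 kb from the Cdkn1a TSS. The other was shared with Rab44 and lay 1619 bp from the Cdkn1a TSS. Ccna1, a cyclin gene used mainly in the germ line, had a peak of 22.2-fold that lay 64.9 kb away and was shared with Sertm1. Skp2, Cks1b, Cdc25a, Ccna2 and Cdkn1c had none.

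Genes that E2F factors are known to regulate had a peak in 4 of 23 cases (17.4%, beside 20.1% of all protein-coding genes). Each of the 4 carried one within 1 kb of its TSS, so that the promoter share was also 17.4%, beside 10.8% of all protein-coding genes. They were Mybl2, Dnmt1, Ezh2 and Tk1, and their peaks within 1 kb had 12.85-, 17.0-, 13.7- and 13.3-fold. The peak of Tk1 was shared with Afmid. The strongest peak of Mybl2, 18.3-fold, lay 31.4 kb from its TSS and was shared with Gtsf1l. All 6 of their peaks, 3 of them from Mybl2, were below the median fold of all peaks. By tag count, all of them but the peak of Dnmt1 (53 tags) were above the median of 58. By score, the peak of Ezh2 (80.6) and those of Mybl2 with scores of 76.4 and 301 were above the median of 71.7, and the rest below. The 6 replicative helicase genes, Mcm2 to Mcm7, had 0 peaks, and so had Pcna, Cdc6, Rrm1, Rrm2 and Ccna2. The MuvB core forms the DREAM complex, which represses cell cycle genes, together with pocket proteins and E2F4. Of 6 genes listed for MuvB and its partners, Mybl2 alone had peaks (16.7%, beside 20.1% of all protein-coding genes). Mybl2 encodes a partner of MuvB that is not part of DREAM. The MuvB core genes Lin9, Lin37, Lin52, Lin54 and Rbbp4 had none. Of the other E2F genes and their DP partner genes, E2f5, E2f6, E2f7, E2f8, Tfdp1 and Tfdp2, 0 of 6 had a peak. Among 8 E2F genes, the list thus gave a peak to E2f1, E2f2 and E2f3, beside 20.1% of all protein-coding genes. The peak of E2f2 lay 7962 bp from the listed TSS and was shared with Asap3. The peak that overlaps one end of E2f4 was listed for Elmo3 and is not counted.

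**Figure D4:**
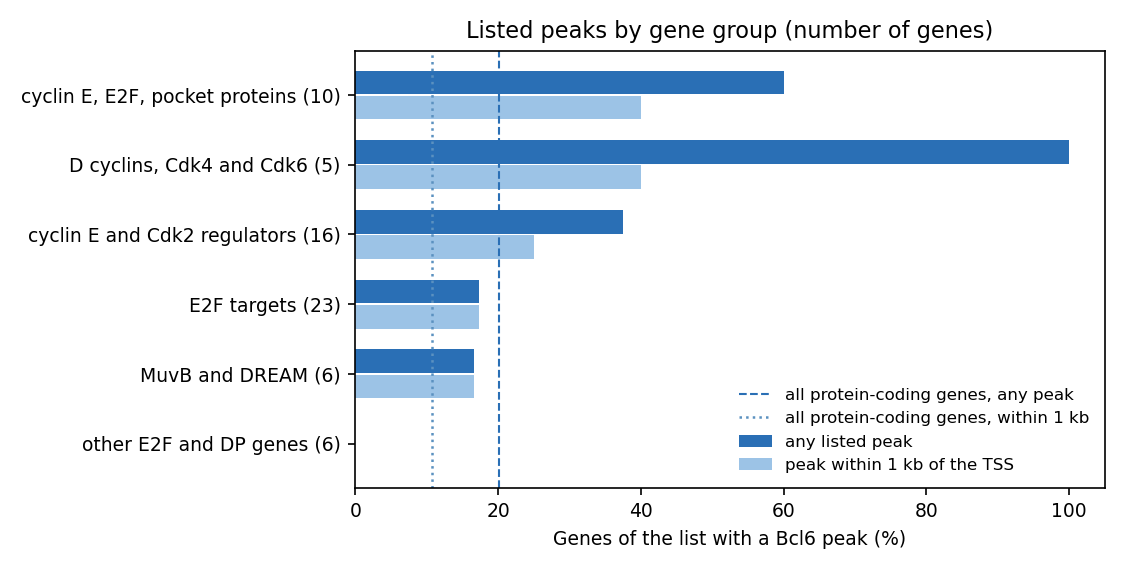
Share of the genes in each group (number of genes in brackets) with any listed Bcl6 peak (dark bars) and with a peak within 1 kb of the TSS (light bars), in percent. The lines mark all protein-coding genes, 20.1% with any peak (dashed) and 10.8% within 1 kb (dotted); cyclin E, E2F and pocket protein genes (6 of 10), D cyclins with their kinases (5 of 5) and cyclin E and Cdk2 regulators (6 of 16) lie above the dashed line. E2F targets (4 of 23) lie below it with any peak and above the dotted line with a promoter peak, and the groups were not tested against each other.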

How the data were processed

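Bcl6 ChIP and input libraries (3 each) were aligned with Bowtie (version not given in the sources used here) to mm10, per the submitters' processing notes. The authors pooled each group, per the series' design text, and called peaks with MACS 1.4.2, per the file headers (p-value cutoff 1e-05, 1 tag per position, local background over 1000 and 10000 bp). Of 56836596 ChIP tags 20.6% were kept and of 12808138 input tags 39.4%, which limits the precision of each peak. The tag counts were deposited by the authors as raw counts of pooled ChIP tags per peak. The authors' peak caller computed the deposited fold enrichment as a ratio of ChIP over the local input background, and the score as 10 times the −log10 of p. The name of the score column was lost, and it was identified by column order and by its minimum. The FDR was computed by the authors' peak caller and deposited in percent. Gene distances are from GREAT 3.0.0, per the file headers.

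Peaks were joined to genes by peak number. Symbols were matched to RefSeq by current or unique older symbol (98.5% of 5801 pairs). Analyses used Python with scipy and matplotlib. Motif searches and the overlap of peaks with promoter windows were tested on simulated data, and the join by peak number and the symbol match were not. All 10 genes were named with every listed peak, with the genes sharing a peak and, per list, up to 4 genes of the strongest peaks; others named were chosen after their values were seen. Members and lists were chosen with earlier results of these data known. No test was run, since there is 1 pooled value per peak.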

Additional observations from a re-analysis of the deposited data

How the results depend on the processing

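The count of 6 genes with a listed peak was 6 with an FDR of at most 5% and 6 with only the nearest gene of each peak. It was 4 with scores at or above the median (without E2f2 and E2f3), 4 with peaks at most 2 kb wide (without E2f1 and E2f3) and 5 within 5 kb of the TSS (without E2f2). The 4 genes with a peak within 1 kb stayed 4 within 2 kb and by the summit, and were 5 within 5 kb. The number of the 7 peaks above the median of all peaks was 2 by fold, 4 by score, 4 by tags and 3 by tags per kb; the cause was not tested. Of the 54 genes in the other lists 15 had a peak, and 8 with scores at or above the median, which leaves fewer peaks; the other 4 alternatives gave 11 to 15. The alternatives for those lists were chosen after seeing the data. The 2 forms of the Bcl6 motif both gave 0 windows. No paired analysis was possible because the libraries were pooled before peak calling, and for the same reason no replicate could be left out. Tag counts of 30 to 112 per peak limit the comparison of single peaks.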

Other observations

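Promoters with an E2F motif were looked at as a group. Over all RefSeq windows, 267 held TTTCGCGC or TTTGGCGC on either strand, and 47 of these (17.6%) were under a Bcl6 peak, against 8.84% of all windows. Split by CpG content, the values came closer together in one class. Among windows with at least 23 CpG, 25.9% of those with the motif and 25.4% of those without it were under a peak. Among windows with fewer CpG, the shares were 8.59% (11 of 128) with the motif and 4.28% without it. These are descriptions of 1 pooled data set and were not tested.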
